A study of Mus musculus with 5 samples.

Results

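Saa3, Lcn2, Slpi, Hp, Lyz1 and Lyz2 code for secreted proteins of the acute phase and of antibacterial defence, and their RNA was followed in LPS-stimulated bone marrow-derived macrophages (BMMs) with and without Semaphorin 3G (Sema3G). The genes were taken by symbol, and all 6 were found among the 24419 gene rows. BMMs from C57BL/6 mice were grown with M-CSF at 50 ng/ml for 5 days, and every sample was stimulated with LPS at 100 ng/ml. The groups compared after 18 h were 2 samples given PBS and 3 samples given recombinant Sema3G at 100 ng/ml. The recombinant protein carried an Fc tag and came from a human cell line, whereas the controls received PBS alone, so an effect of Sema3G and one of the tag or preparation cannot be told apart. No sample without LPS was analysed here. The labels do not say whether the samples of a group were separate cultures or mice, and p-values therefore measure only the spread between these samples, which may be technical.

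The acute phase response is the rise of defence proteins that follows infection or injury. The liver makes most of these proteins in response to cytokines such as IL-6 and IL-1, and activated macrophages make some of them locally through NF-kappaB and C/EBP factors. Saa3 codes for a serum amyloid A protein made mainly outside the liver, and Hp for haptoglobin, which binds free haemoglobin. Lcn2 codes for lipocalin 2, which withholds iron by binding bacterial siderophores. Slpi codes for secretory leukocyte protease inhibitor, which blocks neutrophil elastase. Lyz2 is the lysozyme of macrophages and granulocytes, and Lyz1 is its neighbouring copy, best known from Paneth cells of the gut.

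The sequence upstream of Saa3, the most abundant RNA, and the matching stretches of Lyz1 and Lyz2, 2 closely related genes with far different levels, are shown here. All lie 150 to 51 bases before the RefSeq start (GRCm38.p6, minus strand) and are written 5′ to 3′ along the gene. Capitals mark a match to the C/EBP motif TTGCNNAA in Saa3, and the bases that differ or are missing between the aligned stretches in Lyz1 and Lyz2.
Saa3 (chr7:46715727-46715826): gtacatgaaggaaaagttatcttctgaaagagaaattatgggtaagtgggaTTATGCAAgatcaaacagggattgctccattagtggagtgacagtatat
Lyz1 (chr10:117292919-117293018): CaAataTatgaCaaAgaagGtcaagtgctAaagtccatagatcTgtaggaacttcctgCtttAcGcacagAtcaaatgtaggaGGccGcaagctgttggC
Lyz2 (chr10:117282323-117282422): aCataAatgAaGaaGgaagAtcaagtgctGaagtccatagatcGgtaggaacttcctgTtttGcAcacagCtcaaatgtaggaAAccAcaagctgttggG

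RefSeq promoter entries, which run from 250 bases before to 50 bases after the start, were matched for 5 of the 6 genes and not for Hp. Both strands were searched for 5 motifs. A C/EBP match was present in Saa3 (99 to 92 bases before the start), Lcn2, Slpi and Lyz1, and in 9.56% of all 32851 promoters. The kappaB motif matched in Lcn2, as GGACTACCCC at 102 to 93 bases before the start, and in 45.8% of all promoters. The RefSeq start of Lcn2 lies inside its GENCODE M21 gene model, and the stretch from 150 to 51 bases before it overlaps 2 annotated exons. The same stretch of Slpi (chr2:164356558-164356657) also lies inside the gene model of Slpi, but overlaps no annotated exon. The PU.1 core GAGGAA matched in Lcn2 and in 23.3% of all promoters. The STAT motif TTCNNNGAA (7.02% of promoters) and TATAAA (12.4%) matched in none of the 5. No 2 matches in a member overlapped. A match describes the letters in this window and no more.

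RNA 3′ ends were sequenced with unique molecular identifiers (UMIs), so that 1 UMI stands for 1 captured RNA molecule whatever its length, and levels are given as UMIs or as CPM, the UMI count scaled to a common library total. The libraries held 1798469 to 2215855 UMIs, of which 65.9 to 77.6% fell on listed genes. The ribosomal RNA precursor Rn45s took 1.01 and 3.19% of all UMIs with PBS and 6.31, 7.40 and 7.88% with Sema3G, and the median log2 fold change over all genes tested was -0.22 on the CPM scale. Scaled to the listed genes other than Rn45s, which removes unlisted UMIs as well as Rn45s, that median was 0.043 and the log2 fold changes of Saa3 and Slpi were -0.29 and -0.20. All 10 macrophage markers were detected in at least 1 library, though Mertk had 0 to 5 UMIs a library. They had 10503 to 14411 CPM in sum, most of it on Csf1r and Ctss, with means of 3875 and 4154 CPM. Of 12 neutrophil markers 1 had no row and Elane, Ngp, Retnlg and Cxcr2 were at 0, while the sum, 697 and 1004 CPM with PBS and 588, 670 and 693 CPM with Sema3G, lay almost wholly on Mmp8, S100a8 and Csf3r. Markers of dendritic, lymphoid and mast cells summed to at most 2.78 CPM, and those of stromal cells to 10.7 to 28.0 CPM. In bulk RNA, fewer cells of a type and less RNA per cell cannot be told apart.

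Saa3 was lower in every Sema3G sample than in either PBS sample on the deposited CPM scale but not with TMM factors, and the difference did not pass the test. The gene lies at chr7:46711998-46715700 on the minus strand (GRCm38, GENCODE M21), with 4 exons. It counted 173260 and 231180 UMIs in the PBS samples and 122870, 173143 and 155902 in the Sema3G samples. Those counts were 95192 and 123758 CPM against 68319, 78138 and 71867 CPM. PBS replicate 2 was the highest and Sema3G replicate 1 the lowest, 1.81 times apart, and the groups did not overlap on this scale. Of all genes tested, 26.5% were likewise lower in all Sema3G than in both PBS samples. With CPM scaled by TMM factors the groups overlapped, since Sema3G replicate 2 (84810 CPM) lay above PBS replicate 1 (82166 CPM). They also overlapped with Rn45s left out of the listed UMIs, at 13.1% in Sema3G replicate 2 and 12.4% in PBS replicate 1. The PBS mean was 109475 ± 20199 CPM (SD, n = 2) and the Sema3G mean 72775 ± 4972 CPM (SD, n = 3). The log2 fold change was -0.58 with a standard error of 0.77 (95% interval -2.20 to 1.04), and the adjusted p was 0.685 by limma with Benjamini-Hochberg adjustment over 10088 genes.

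The width of that interval was set by genes other than Saa3. The SD of Saa3 within groups was 0.17 on the log2 scale, but limma's trend of SD against level, which rests on few genes at so high a level, gave 0.92. In a limma fit without the trend, chosen after seeing the data, the standard error was 0.24, the unadjusted p 0.0460 and the adjusted p 0.315. By edgeR's quasi-likelihood test on the UMI counts with TMM scaling the log2 fold change was -0.39 (adjusted p = 0.463). Over 19 alternative settings the log2 fold change stayed negative, and the adjusted p of the models fitted across all genes ran from 0.238 to 0.880.

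**Figure D1:**
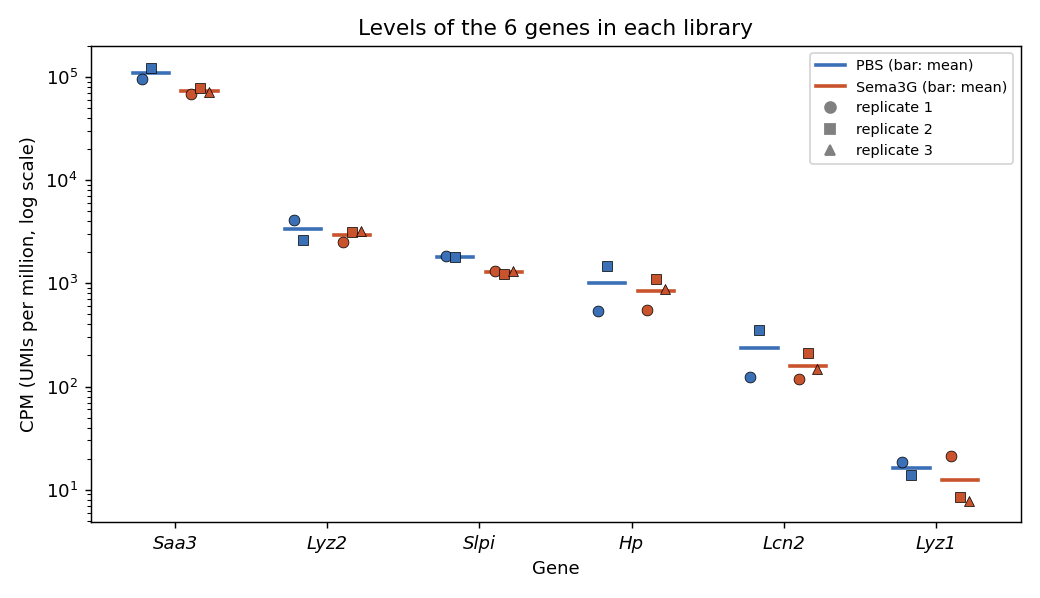
Level of each of the 6 genes in each library (CPM, log axis), with PBS in blue and Sema3G in orange, a marker shape for each replicate number and a bar at the group mean. The levels span from 7.84 CPM for Lyz1 to 123758 CPM for Saa3, on this scale the groups are apart for Saa3 and Slpi, and for Lcn2 and Hp PBS replicate 2 lies far above PBS replicate 1.

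Saa3 RNA made up a large part of each library. It took 12.3 and 16.4% of the UMIs on listed genes with PBS and 9.58, 11.6 and 10.9% with Sema3G. The lowest of these shares had a 95% Wilson interval of 9.53 to 9.63% and the highest one of 16.3 to 16.4%, counting error only. Saa3 ranked first in all libraries but Sema3G replicate 3, where only Rn45s had more UMIs. Among the UMIs of the 6 genes, Saa3 accounted for 92.8 to 95.2%.

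Together the 6 genes took 13.1 and 17.2% of the UMIs on listed genes with PBS and 10.2, 12.5 and 11.8% with Sema3G. PBS replicate 1, at 13.1%, and Sema3G replicate 2, at 12.5%, were the nearest pair across the groups. The means were 15.2 ± 2.89% (SD, n = 2) and 11.5 ± 1.17% (SD, n = 3), a difference of -3.67 percentage points, with p = 0.2 by an exact two-sided permutation test, the smallest that 2 against 3 samples can give (0.4 after Benjamini-Hochberg adjustment over 2 tests). With Rn45s left out of the denominator the difference was -2.76 points and the groups overlapped (exact permutation p = 0.6). Without Saa3 the other 5 genes took 0.849 and 0.830% with PBS and 0.635, 0.854 and 0.849% with Sema3G, so that Sema3G replicate 1 was low and the other 4 libraries lay close together.

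**Figure D2:**
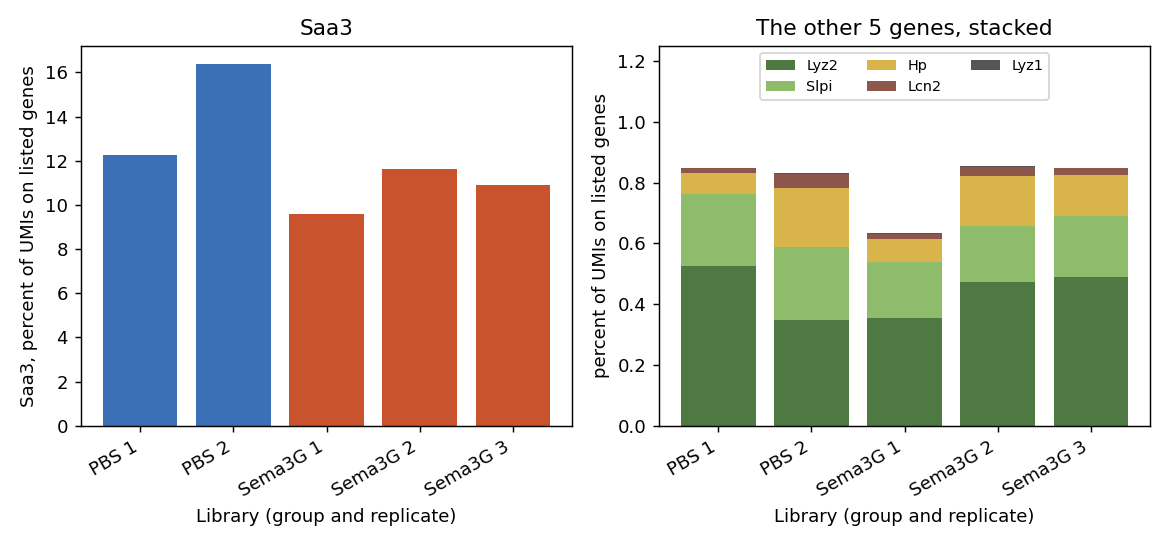
Percent of the UMIs on listed genes in each library (bars from 0), for Saa3 in the left panel (PBS blue, Sema3G orange) and for the other 5 genes stacked in the right panel, whose axis is far shorter. Saa3 runs from 9.58% in Sema3G replicate 1 to 16.4% in PBS replicate 2, while the other 5 genes together stay between 0.635 and 0.854%.

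Slpi, the protease inhibitor, was the steadiest of the 6 genes and was lower in every Sema3G sample. It lies at chr2:164354070-164389095 on the minus strand, and the miRNA gene Mir7678 lies within its gene model. It counted 3323 and 3368 UMIs in the PBS samples and 2362, 2750 and 2869 in the Sema3G samples. In CPM these were 1826 and 1803 against 1313, 1241 and 1323, so the libraries of a group lay close together and the groups did not overlap. The groups of Slpi were also apart with CPM scaled by TMM factors, at 1576 and 1758 against 1297, 1347 and 1466 CPM, where 15.6% of all genes were lower in this way, and over listed genes other than Rn45s, where 10.5% were. The PBS mean was 1814 ± 16.1 CPM (SD, n = 2) and the Sema3G mean 1292 ± 44.6 CPM (SD, n = 3). The log2 fold change was -0.49 with a standard error of 0.22 (95% interval -0.94 to -0.036). The unadjusted limma p was 0.0359, where 21.1% of all genes tested were under 0.05, and the limma adjusted p was 0.208. Against the all-gene median the log2 difference was -0.26.

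The spread of Slpi between libraries of a group was an SD of 0.042 on the log2 scale. Of 1052 genes that averaged 100 CPM or more, 13 had a smaller SD, and the median SD was 0.20. The SD of limma's trend at the level of Slpi was 0.26, so its standard error, like that of Saa3, drew on the other genes. Leaving out each library in turn kept the log2 fold change between -0.51 and -0.46. With TMM scaling it was -0.28 (adjusted p = 0.432 by edgeR's quasi-likelihood test).

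Lcn2 and Hp, which bind siderophores and haemoglobin, varied together and varied more between libraries of a group than between the groups. Lcn2 lies at chr2:32384633-32388252 and Hp at chr8:109575128-109579172, both on the minus strand. Lcn2 counted 227 and 659 UMIs in the PBS samples and 213, 467 and 322 in the Sema3G samples, or 125 and 353 CPM against 118, 211 and 148 CPM. PBS replicate 2 was the highest library and PBS replicate 1 was next to the lowest, so the groups overlapped. Hp counted 977 and 2735 UMIs in the PBS samples and 990, 2425 and 1932 in the Sema3G samples, or 537 and 1464 CPM against 550.5, 1094 and 891 CPM. The order was like that of Lcn2, with PBS replicate 2 highest and PBS replicate 1 and Sema3G replicate 1 lowest.

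The fold between the PBS samples, replicate 2 over replicate 1, was 2.83 for Lcn2 (95% counting interval 2.43 to 3.30) and 2.73 for Hp (2.53 to 2.94). Between Sema3G replicates 2 and 1 it was 1.78 (1.51 to 2.10) for Lcn2 and 1.99 (1.85 to 2.14) for Hp. These intervals cover counting error only, and none includes 1, so the spread exceeded the counting error. The SD within groups was 0.70 for Lcn2 and 0.72 for Hp on the log2 scale, and of the 1052 genes with at least 100 CPM, 15 had a larger SD than Lcn2 and 13 a larger one than Hp. The ratio of Hp to Lcn2 moved far less than either gene, with 4.30 and 4.15 Hp UMIs per Lcn2 UMI in the PBS samples and 4.65, 5.19 and 6.00 in the Sema3G samples. Among the neutrophil markers, S100a8 stood at 113 and 165 CPM in the PBS samples and at 102, 129.5 and 129 CPM in the Sema3G samples, an order like that of Lcn2. Mmp8, at 498 and 731 against 414, 475 and 498 CPM, did not share the full order. Nor did Csf3r, at 82.4 and 104 against 70.6, 62.3 and 63.2 CPM. The neutrophil marker sum given above was also highest in PBS replicate 2 and lowest in Sema3G replicate 1, with 670 to 697 CPM in the other 3 libraries. The macrophage marker Cd14 was likewise highest and lowest in these libraries, whereas the macrophage marker sum was lowest in PBS replicate 2. Elane and Ngp were at 0 in every library and S100a9 had 2 to 4 UMIs a library. The part of neutrophil RNA in the spread was not tested.

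The mean of Lcn2 was 239 ± 161 CPM in the PBS samples (SD, n = 2) and 159 ± 47.1 CPM in the Sema3G samples (SD, n = 3), for a log2 fold change of -0.44 with a standard error of 0.31 (limma adjusted p = 0.423). A single library decided this value. With PBS replicate 1 left out the log2 fold change was -1.18 and Lcn2 passed the test (limma adjusted p = 0.0297), in a fit where 0.0894% of genes were called lower. With PBS replicate 2 left out it was 0.31 (limma adjusted p = 0.490). The mean of Hp was 1000.5 ± 656 CPM in the PBS samples (SD, n = 2) and 845 ± 275 CPM in the Sema3G samples (SD, n = 3), for a log2 fold change of -0.13 with a standard error of 0.33 (95% interval -0.82 to 0.57, limma adjusted p = 0.852). Leaving out each library in turn moved it between -0.85 and 0.60, and it was 0.081 on the CPM scaled by TMM factors. The SD that limma used was 0.34 for Lcn2 and 0.36 for Hp, below their own 0.70 and 0.72, so both standard errors drew on the other genes. In the limma fit without the trend these errors were 0.47 and 0.48.

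**Figure D3:**
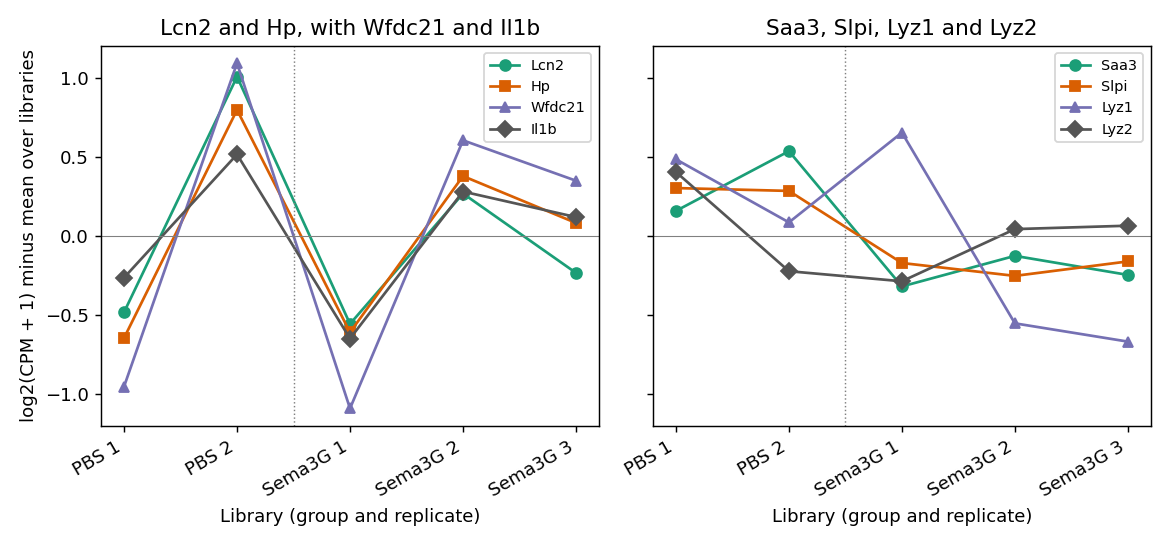
Level of each gene in each library as log2(CPM + 1) minus its mean over the 5 libraries, with Lcn2, Hp, Wfdc21 and Il1b in the left panel, the other 4 genes in the right panel, a dotted line between the groups, and lines that only join the points of 1 gene. Lcn2 and Hp follow each other with a peak in PBS replicate 2, Slpi and Saa3 are lower in all Sema3G libraries on this scale (with TMM factors the groups of Saa3 overlap), and Lyz1 and Lyz2 part in the Sema3G libraries; Wfdc21 and Il1b were chosen for the plot after their values were seen.

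The lysozyme genes lie 5475 bp apart on chromosome 10 with no annotated gene between them, Lyz2 at chr10:117277331-117282321 and Lyz1 at chr10:117287797-117292868, both on the minus strand and with 4 exons each. Lyz2 held nearly all of their UMIs, 7434 and 4934 in the PBS samples and 4545, 7042 and 6998 in the Sema3G samples, or 4084 and 2641 CPM against 2527, 3178 and 3226 CPM. The PBS samples held the highest Lyz2 value and the value next to the lowest, so the groups overlapped. Its mean was 3363 ± 1020 CPM in the PBS samples (SD, n = 2) and 2977 ± 390 CPM in the Sema3G samples (SD, n = 3), for a log2 fold change of -0.15 with a standard error of 0.28 (95% interval -0.74 to 0.43, limma adjusted p = 0.780). The direction was not fixed, since it was 0.057 with TMM scaling.

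Lyz1 counted 34 and 26 UMIs in the PBS samples and 38, 19 and 17 in the Sema3G samples, or 18.7 and 13.9 CPM against 21.1, 8.57 and 7.84 CPM. Sema3G replicate 1 was the highest library and the other Sema3G samples were the lowest. The PBS mean was 16.3 ± 3.37 CPM (SD, n = 2) and the Sema3G mean 12.5 ± 7.47 CPM (SD, n = 3), for a log2 fold change of -0.48 with a standard error of 0.37 (limma adjusted p = 0.465). Between the PBS samples the fold was 0.745 with a 95% counting interval of 0.429 to 1.28, so a difference between them was not detectable at this depth. Between Sema3G replicates 2 and 1 it was 0.406 (0.221 to 0.722), which does not include 1.

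Lyz1 accounted for 0.455 and 0.524% of the UMIs on both lysozyme genes with PBS and for 0.829, 0.269 and 0.242% with Sema3G. The highest of these shares had a 95% Wilson interval of 0.605 to 1.14% and the lowest one of 0.151 to 0.388%. The means were 0.490 ± 0.0487% (SD, n = 2) and 0.447 ± 0.331% (SD, n = 3), with p = 1.0 by an exact two-sided permutation test. The last 400 bases of the transcripts, where 3′ reads fall, were 94.8% identical. Of 326 windows of 75 bases, the read length, 30 were identical in both genes, and 177 of the Lyz1 windows lay within 2 mismatches of Lyz2. Reads could thus be split between the 2 genes, and the level of Lyz1 is uncertain. For Saa3, Lcn2, Slpi and Hp none of the 326 windows was found in another gene's transcript. The printed upstream stretches of the lysozyme genes were 83.2% identical, with 15 mismatches and 2 gap bases.

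Of the 6 genes, none passed an adjusted p of 0.05 in limma, where 1.8% of all genes tested did (160 higher and 22 lower with Sema3G, or 325 and 3 on CPM scaled by TMM factors). At an unadjusted p under 0.05 the count was 1, Slpi, in limma, where 21.1% of all genes tested were. It was 0 in edgeR's quasi-likelihood test with TMM scaling and in DESeq2, whose shares of all genes are not given here. This count moved with the settings. With no filter it was 2 in that edgeR test, Saa3 and Lcn2, and 0 in limma. With the replicate number as a block it was 2 in limma, Slpi and Lcn2. After adjustment edgeR's quasi-likelihood test with TMM scaling and DESeq2 called none of the 6 either, against 4.1 and 2.77% of all genes. All 6 log2 fold changes were below 0 in limma on the deposited CPM, as were 6805 of the 10088 genes tested. With CPM scaled by TMM factors those of Hp and Lyz2 were above 0, at 0.081 and 0.057. On the deposited CPM the 6 had a median of -0.46, against an all-gene median of -0.22. Relative to that median, Saa3 was at -0.35, Slpi at -0.26, Lyz1 at -0.25 and Lcn2 at -0.21, while Lyz2 was at 0.074 and Hp at 0.099. A p above the threshold does not show that a gene was unaffected. The intervals above give the sizes allowed under limma's SDs, which drew on the other genes.

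**Figure D4:**
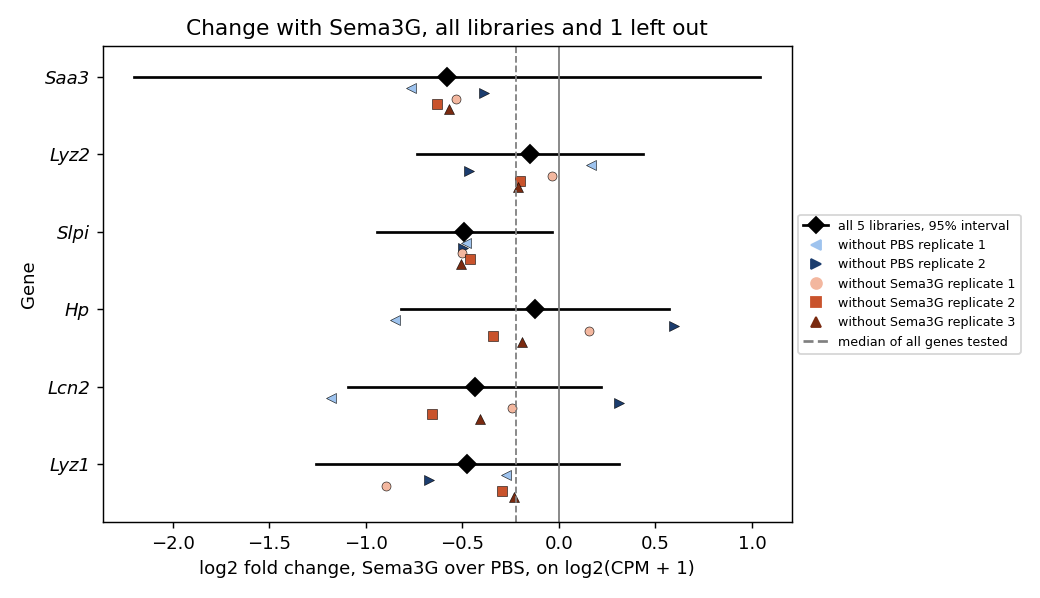
Log2 fold change of each gene, Sema3G over PBS, on log2(CPM + 1), as a diamond with its 95% limma interval for all 5 libraries and smaller markers for fits with 1 library left out, and a dashed line at the median of all genes tested (-0.22). The interval of Slpi alone lies below 0, that of Saa3 is the widest of the 6, and the markers of Lcn2 and Hp spread to both sides of 0.

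**Figure D5:**
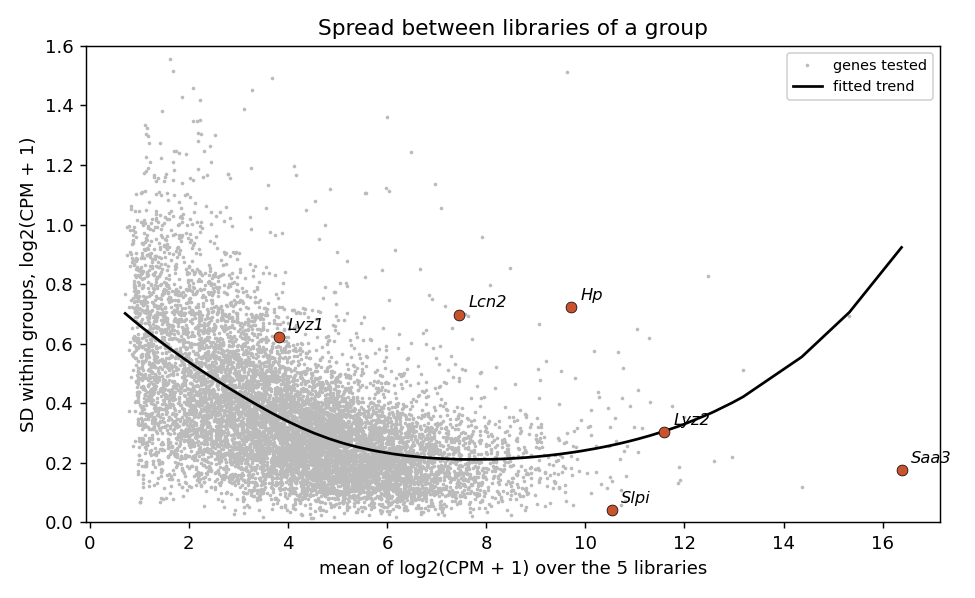
SD within groups (log2(CPM + 1)) against mean level (log2(CPM + 1)) for every gene tested, with the 6 genes named and limma's fitted trend as a line. Lcn2 and Hp lie far above the genes of like level, Slpi lies near 0, and Saa3 lies far below the trend at the right edge.

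Other acute phase genes were few in these macrophages. Of 35 listed, 21 had no UMI in any library, among them the pentraxins Crp, Apcs and Ptx3 and the fibrinogen genes, and 9 were tested. None was called by limma, by edgeR's quasi-likelihood test or by DESeq2, and 3 had an unadjusted limma p under 0.05, all lower with Sema3G. Over all genes that share was 21.1% (689 higher and 1436 lower). The median log2 fold change of the 9 was -0.49. Saa1 and Saa2, the serum amyloid A genes of the liver response, had 2 to 24 and 2 to 6 UMIs a library, against 122870 to 231180 for Saa3. The metallothionein Mt1, which binds zinc and copper, counted 771 and 1411 UMIs in the PBS samples and 608, 908 and 855 in the Sema3G samples (log2 fold change -0.58, limma adjusted p = 0.165). The complement component C3 had 711 and 1109 against 560, 840 and 726 UMIs (log2 fold change -0.50, limma adjusted p = 0.184). Mt2 had 216 and 366 against 165, 350 and 346 UMIs, and its groups overlapped. Mt1 was called with PBS replicate 1 left out, and Cfb with Sema3G replicate 1 left out, both lower. In these fits 0.0894 and 5.49% of all genes were called lower. With PBS replicate 2 left out the log2 fold change of Mt1 was -0.16 (limma adjusted p = 0.694) and that of C3 -0.20.

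Other secreted defence genes were as sparse, with 20 of 34 at 0 in every library and 8 tested. None was called by the 3 tools or had an unadjusted limma p under 0.05, and the median log2 fold change was -0.32. Wfdc21, which like Slpi carries a WAP domain, counted 57 and 248 UMIs in the PBS samples and 51, 209 and 171 in the Sema3G samples, an order like that of Lcn2 and Hp. Wfdc17, of the same domain family, ran the other way, with 676 and 265 against 450, 286 and 318 UMIs. S100a8, a calcium-binding protein of myeloid cells, had 206 and 309 against 183, 287 and 279 UMIs. The groups overlapped for all 3. Wfdc17 was called lower with PBS replicate 2 left out (limma adjusted p = 0.0322), as were 0.327% of all genes.

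Of 23 inducers and regulators of acute phase genes 19 were tested, none was called by limma on the deposited CPM, and 8 had an unadjusted limma p under 0.05 (1 higher and 7 lower with Sema3G), against 21.1% of all genes. edgeR's quasi-likelihood test and DESeq2, which called 4.1 and 2.77% of all genes, each called 1, the IL-6 receptor gene Il6ra, as limma did on CPM scaled by TMM factors, named here after its values were seen, at 129 and 151 UMIs in the PBS samples and 218, 250 and 258 in the Sema3G samples (limma adjusted p = 0.0890). The median log2 fold change was -0.38. Cebpb, a C/EBP factor, counted 960 and 1121 UMIs in the PBS samples and 671, 897 and 876 in the Sema3G samples, with no overlap in CPM (log2 fold change -0.51, limma adjusted p = 0.138). Il1b, the cytokine IL-1 beta, had 2641 and 4660 against 1997, 4695 and 4108 UMIs, and Nfkbia, the inhibitor of NF-kappaB, had 1592 and 2080 against 1526, 1955 and 2158 UMIs. The groups overlapped for both in CPM. With Sema3G replicate 1 left out, limma called Cebpd and Rela lower, as it did 5.49% of all genes.

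Of 22 receptors and iron partners of these proteins 19 were tested, none was called by the 3 tools, and 4 had an unadjusted limma p under 0.05, all lower with Sema3G, a share like the 21.1% of all genes. The median log2 fold change was -0.35. Fpr2, a receptor for serum amyloid A, counted 2814 and 3618 UMIs in the PBS samples and 2472, 2833 and 2615 in the Sema3G samples (log2 fold change -0.43, limma adjusted p = 0.274). The ferritin heavy chain gene Fth1 had 46923 and 46018 against 37599, 40664 and 37491 UMIs (log2 fold change -0.42, limma adjusted p = 0.612), and the light chain gene Ftl1 had 5104 and 2090 against 3229, 3245 and 2870, with overlap. Cd163, the haptoglobin-haemoglobin receptor, had 3 to 10 UMIs a library, and Slc22a17, a lipocalin 2 receptor, had 0 to 2, both named after their values were seen. With Sema3G replicate 1 left out, limma called the metal transporter gene Slc11a1 lower, 1 of 19 genes, in a fit that called 5.49% of all genes lower.

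The genes with profiles most like those of the 6 were sought among 1047 genes that averaged 100 CPM or more, by the root mean square difference of centred log2(CPM + 1) over the 5 libraries. For Saa3 they were the glucose transporter gene Slc2a1 (0.0086), the long noncoding RNA Neat1 (0.025) and Clec4n (0.056). For Slpi they were Riok3 (0.033), Lrp1 (0.035) and Glul (0.040). Lcn2 and Hp shared 2 of their 3, the coagulation factor X gene F10 and Smpdl3b, at 0.15 and 0.15 from Lcn2 and at 0.12 and 0.20 from Hp. For Lyz2 they included Socs3 (0.066) and Hspa4 (0.077), and for Lyz1 they were Ptpn18, Aif1 and B2m, each at about 0.16. Among the 6 genes themselves, Saa3 and Slpi (0.16) and Lcn2 and Hp (0.19) were the nearest pairs, and Hp and Lyz1 (0.98) were the farthest apart. The libraries share their totals, so such likeness is a description of 5 libraries.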

How the data were processed

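RNA 3′ ends from 2 PBS and 3 Sema3G samples of LPS-stimulated BMMs were analysed. The authors mapped 75-base reads to mm10, counted UMIs with Strand NGS and normalized with EdgeR (3.12 in the submitters' processing notes), and they deposited CPM per gene. No source used here gives the gene annotation or a filter. The deposited p-values, q-values and rank of the authors' comparison were not used.

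The deposited CPM values were whole multiples of 1 step per library (100% within 0.01 of a whole count), which gave the UMI counts and totals. A count of 3 corresponds to 1.35 to 1.67 CPM. Sema3G replicates 2 and 3 were by far the most alike pair (chi-square per degree of freedom 1.77, other pairs 6.57 to 29.6), though they differed beyond sampling noise. The labels do not say whether these 2 samples are independent. If they are not, n = 3 overstates the Sema3G group. The symbols of 27 rows had become dates.

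For CPM the test foreseen was limma (version 3.58.1 in R 4.3.3), run on log2(CPM + 1) with its trend option for the 10088 genes that averaged 1 CPM or more. Benjamini-Hochberg adjustment covered all of them. Fold changes on this scale understate those of low genes. edgeR (4.0.16) on the recovered counts called 334 genes and DESeq2 (1.42.0) was a further alternative, and all were tested on simulated data. Alternatives changed the pseudocount (0.1, 5), filter, scaling, test and replicate block, summed Lyz1 and Lyz2, and left out each library. Shares were compared by exact permutation. Promoters are from RefSeq and gene models from GENCODE M21.

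Named are the 6 genes, the 3 most abundant genes of each list, any list gene past the limma threshold, the 3 most similar profiles and Rn45s, of which 1 profile is not reported here. Saa1, Saa2, Crp, Apcs, Ptx3, Cfb, Cebpd, Rela, Il6ra, Slc11a1, Cd163, Slc22a17 and the markers named were chosen after their values were seen. The genes and lists were chosen with earlier results of these data known.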

Additional observations from a re-analysis of the deposited data

How the results depend on the processing

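The log2 fold changes of Saa3, Slpi and Lyz1 stayed negative and uncalled under all 19 alternatives. The groups of Saa3 overlapped on CPM scaled by TMM factors and over listed genes other than Rn45s, checks chosen after seeing the data, and those of Slpi did not. Those of Lyz2 and Hp turned positive under several other scalings, though Hp stayed at -0.060 by edgeR's quasi-likelihood test with TMM, -0.050 with no filter and -0.051 by DESeq2. The median of all genes moved from -0.22 to -0.034 with TMM and to 0.043 over listed genes other than Rn45s, a scaling that removes unlisted UMIs as well as Rn45s. With CPM scaled by TMM factors the log2 fold change was 0.081 for Hp, 0.057 for Lyz2, 0.0015 for Mt2, 0.0084 for S100a8, 0.087 for Wfdc21 and 0.084 for Nfkbia. Over listed genes other than Rn45s it was 0.17 for Hp, 0.14 for Lyz2, 0.085 for Mt2, 0.092 for S100a8, 0.17 for Wfdc21, 0.082 for Il1b, 0.17 for Nfkbia and 0.066 for Ftl1. With the 6 genes left out as well it was 0.12 for Hp, 0.094 for Lyz2, 0.038 for Mt2, 0.045 for S100a8, 0.13 for Wfdc21, 0.035 for Il1b, 0.12 for Nfkbia and 0.019 for Ftl1. By limma-voom it was 0.081 for Hp, 0.057 for Lyz2, 0.0087 for Mt2, 0.014 for S100a8, 0.13 for Wfdc21 and 0.084 for Nfkbia. By edgeR's quasi-likelihood test with TMM it was 0.057 for Lyz2, 0.00027 for Mt2 and 0.070 for Nfkbia, and with no filter 0.052, 0.0052 and 0.072. By DESeq2 it was 0.065 for Lyz2, 0.0076 for Mt2, 0.0013 for Il1b and 0.079 for Nfkbia. None of these was called.

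Leaving out each library in turn moved the log2 fold change of Saa3 between -0.77 and -0.39, of Lcn2 between -1.18 and 0.31, of Slpi between -0.51 and -0.46, of Hp between -0.85 and 0.60, of Lyz1 between -0.90 and -0.24 and of Lyz2 between -0.46 and 0.16. It moved Mt1 between -0.99 and -0.16, C3 between -0.80 and -0.20, Mt2 between -0.56 and 0.16, Wfdc17 between -1.14 and 0.24, S100a8 between -0.47 and 0.075, Wfdc21 between -1.14 and 0.91, Il1b between -0.60 and 0.18, Nfkbia between -0.30 and 0.051 and Ftl1 between -0.89 and 0.44. The log2 fold change of Fpr2 ran from -0.59 to -0.27, of Cebpb from -0.61 to -0.42 and of Fth1 from -0.50 to -0.36. The difference in the Lyz1 share ran from -0.23 to 0.059 percentage points and that in the share of the 6 genes from -5.72 to -1.63. An arm left with 1 PBS sample was assumed to vary like the other group. The number of the 6 genes called ran from 0 to 1, the 1 being Lcn2 without PBS replicate 1.

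The number of all genes called was 182, and 26 to 856 when each library was left out in turn (92 without PBS replicate 1, 856 without Sema3G replicate 1, 26 without Sema3G replicate 2 and 28 without Sema3G replicate 3). It was 108 with no filter, 328 with CPM scaled by TMM factors (325 higher and 3 lower), 487 over listed genes other than Rn45s, 363 with the 6 genes left out as well, 334 by edgeR's quasi-likelihood test, 598 by that test with no filter and 10 by limma without a trend. With the replicate number as a block it was 573, and none of the 6 genes was called. Of the listed genes, Mt1, Cebpb, Cebpd, Rela and Lrp1 were called lower and Il6ra higher with the block. The groups share 2 numbers, and the deviations of same-numbered samples correlated at 0.17 and 0.11, so with fewer than 3 pairs and no label that ties them the samples share only a number. The cause of each of these shifts was not tested. Depth limits Lyz1, whose 17 to 38 UMIs a library leave wide counting intervals.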

Other observations

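The ratio of Saa3 to Lyz2, free of any scaling, was 23.3 and 46.9 Saa3 UMIs per Lyz2 UMI in the PBS samples and 27.0, 24.6 and 22.3 in the Sema3G samples. PBS replicate 2 stood apart and the other 4 libraries lay close together, so the groups overlapped.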
